A study of Rattus norvegicus with 16 samples.

Results

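Genes of fatty acid synthesis were followed in the mammary gland of young female rats on 16 Affymetrix arrays. The set named 8 symbols: Acly, Me1, Acaca, Fasn, Elovl6, Scd, Thrsp and Srebf1. A symbol was used where the platform annotation tied a probe set, which is a group of probes read out as 1 value, to that gene alone. Acly, Me1, Acaca, Elovl6, Scd and Thrsp met this, each with 1 probe set, and so the set came to 6 of 14324 named genes. Srebf1 shared its probe set with Pemt and Fasn was not among the genes named here, so neither was analysed here. All 6 passed the filter on dim genes, a mean log2 intensity of at least 5.66, as did 11796 genes in all. Their signals were bright: the mean of Acly exceeded 96.4% of all probe sets, the lowest share of the 6, and that of Scd exceeded 99.96%.

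The animals were daughters of Wistar Han dams gavaged daily from gestational day 1 to postnatal day (PND) 21. The dams received genistein, a soy isoflavone that binds estrogen receptors, or vinclozolin, a fungicide with antiandrogenic action, or both as a mixture, with a daily dose of 1 mg/kg for each compound. Control dams were untreated, and all groups ate a purified diet free of phytoestrogens. Glands were taken at PND35 or PND50, so dosing had ended before either age, and the 4 treatments at 2 ages made 8 groups of 2 arrays. Each array carried RNA pooled from 5 animals, 1 female per litter, so every p-value measures the spread between pools and not between animals. Precision is limited by this number of arrays.

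The deposited values were read as log2 intensities, so a difference of 1 is a 2-fold difference. The log base was not given in the sources used here and rests on their range. Array medians lay between 7.05 and 7.14. Replicate arrays correlated at 0.9959 or more (Pearson's r over all probe sets) in 6 groups, at 0.9952 for genistein at PND35 and at 0.9893 for vinclozolin at PND35. Markers of the labelled tissue were present on every array: the adipocyte hormone gene Adipoq lay between 12.46 and 12.87, the luminal keratin gene Krt18 between 8.29 and 8.97, and the casein gene Csn2 between 7.75 and 11.69. Ucp1, the defining gene of brown fat, stayed at 4.99 to 5.41, under the filter. The hair keratin gene Krt25 read 10.48 and 10.59 in the vinclozolin PND35 pools and no higher than 5.36 elsewhere. The glands are mixtures of fat, epithelium and other cells, and in such RNA fewer cells of a type and less RNA per cell cannot be told apart.

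Cells build fatty acids in the cytosol from carbon that leaves the mitochondrion as citrate. ATP citrate lyase (Acly) splits citrate into acetyl-CoA, acetyl-CoA carboxylase (Acaca) turns that into malonyl-CoA in the committed step, and fatty acid synthase (Fasn) joins the units into palmitate with NADPH, part of which comes from malic enzyme (Me1). Elovl6 lengthens palmitate to stearate, and stearoyl-CoA desaturase (Scd) places a double bond to give oleate. Thrsp, also called Spot 14, is a small protein that promotes lipogenesis and is needed for normal milk fat synthesis, and SREBP-1, the product of Srebf1, switches many of these genes on after feeding. In the mammary gland the pathway runs in the adipocytes of the fat pad and, in lactation, in the secretory epithelium.

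The start regions of genes that varied together on these arrays are given for Acly, Thrsp and Scd, which stand for the entry to the pathway, its cofactor and its desaturase. RefSeq sequences of assembly GRCr8, which come from a reference strain and not from these animals, covered 4 of the 6 genes (Acly, Me1, Scd and Thrsp). Each is the 250 bases before the gene's start, 5′ to 3′ on the gene's strand, which is the minus strand for these genes. Capitals mark matches on either strand to the CCAAT box (CCAAT) or the GC box (GGGCGG), and no matches overlapped.
Acly, chr10:85963632-85963881: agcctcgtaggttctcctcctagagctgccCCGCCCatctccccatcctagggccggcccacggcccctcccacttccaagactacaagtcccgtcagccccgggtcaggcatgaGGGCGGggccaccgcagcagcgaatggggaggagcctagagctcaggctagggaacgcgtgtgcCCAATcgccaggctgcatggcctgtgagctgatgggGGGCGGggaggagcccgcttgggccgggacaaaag
Thrsp, chr1:161138965-161139214: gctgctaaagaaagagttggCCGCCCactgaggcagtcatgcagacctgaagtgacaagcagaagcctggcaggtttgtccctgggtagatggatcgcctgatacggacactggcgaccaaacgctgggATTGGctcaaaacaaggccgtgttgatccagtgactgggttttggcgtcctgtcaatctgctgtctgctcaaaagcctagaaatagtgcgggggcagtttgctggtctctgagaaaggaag
Scd, chr1:253231732-253231981: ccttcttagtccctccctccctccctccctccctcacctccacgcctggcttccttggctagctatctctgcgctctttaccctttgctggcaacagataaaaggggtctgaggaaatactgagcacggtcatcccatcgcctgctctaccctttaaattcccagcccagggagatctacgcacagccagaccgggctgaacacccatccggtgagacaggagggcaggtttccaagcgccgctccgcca

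The Acly window held a CCAAT box 71 bases before the start and GC boxes at 220, 135 and 35 bases before it. Of these, the GC box at 220 was on the opposite strand. In the Thrsp window a CCAAT box 121 bases before the start and a GC box 230 bases before it both lay on the opposite strand. The Scd window held no match. Among the 4 windows, including that of Me1, 2 held a CCAAT box and 3 a GC box. Of 33469 windows of the same length before RefSeq starts, these 4 included, 34.0% held a CCAAT box and 30.5% a GC box. The E-box CACGTG, in 5.59% of all windows, and the sterol regulatory element core TCACNCCAC, in 0.974%, matched in none of the 4. These matches describe the letters in the windows only.

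The main feature of these genes was their spread between pools of the same group. Every one of the 6 had its highest value of all 16 arrays in replicate 1 of vinclozolin at PND35 and its lowest in replicate 2 of that group. How many of all genes had both extremes in these pools was not counted. Over the 16 arrays 139 genes had a larger range than Elovl6, but 3884 a larger one than Scd. The pools differed 4.79-fold for Elovl6, 3.32-fold for Acaca, 3.07-fold for Me1, 2.98-fold for Acly, 2.45-fold for Thrsp and 1.46-fold for Scd. None of the 19 comparisons of age and treatment called any of the 6 genes with limma at an adjusted p of 0.05, and none of the 6 had an unadjusted p under 0.05 in any of them, where 2.6% to 53.1% of all genes had one. The fit used 1 spread per gene for all 8 groups, so the gap between these vinclozolin pools widened the intervals of every comparison. The plot of levels by array shows the values of each pool.

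**Figure D1:**
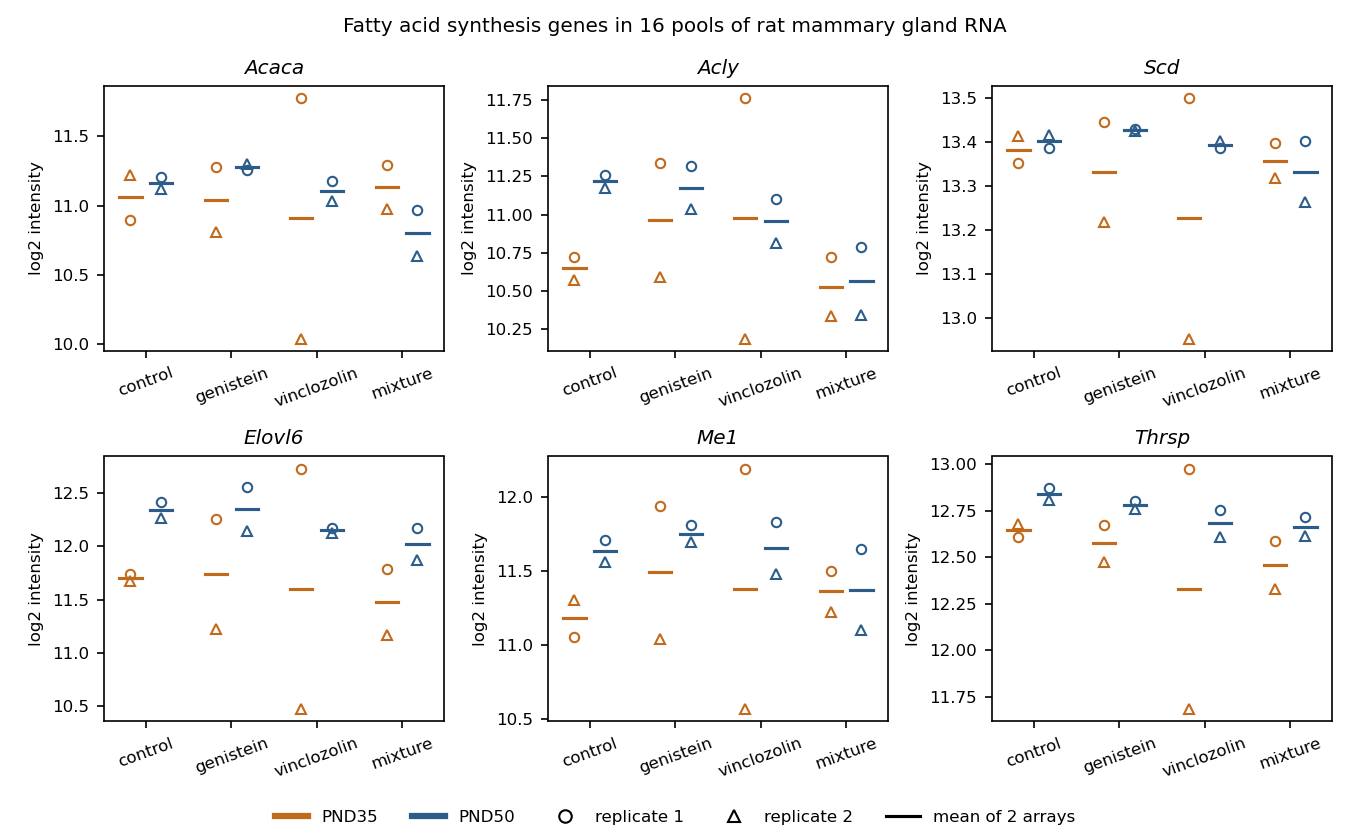
Log2 intensity of the 6 fatty acid synthesis genes on each of the 16 arrays, with 1 point per pool and a bar at the mean of each group of 2. Replicate 1 of vinclozolin at PND35 is the highest array and replicate 2 the lowest for every gene, while the control pools at PND35 lie within 0.33 of each other.

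Acly and Me1 supply the pathway with acetyl-CoA and NADPH. Control pools gave 10.72 and 10.57 for Acly at PND35 and 11.26 and 11.17 at PND50. Genistein pools gave 11.34 and 10.59 at PND35 and 11.32 and 11.04 at PND50. In the vinclozolin group the values were 11.76 and 10.19 at PND35 and 11.10 and 10.81 at PND50. Acly was thus closely matched between control pools and far apart between the PND35 pools of either single compound. Mixture pools gave 10.72 and 10.33 at PND35 and 10.79 and 10.34 at PND50. By group mean the control at PND50 was highest (11.22 ± 0.06, SD, n = 2) and the mixture at PND35 lowest (10.53 ± 0.27), and along that order all neighbours overlapped except vinclozolin at PND50 and the control at PND35.

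Me1 read 11.05 and 11.31 in the control pools at PND35 and 11.71 and 11.56 at PND50. With genistein it read 11.94 and 11.04 at PND35 and 11.81 and 11.69 at PND50. The vinclozolin pools stood at 12.19 and 10.57 at PND35 and at 11.83 and 11.48 at PND50. The single compounds at PND35 gave pools on either side of both control pools. Me1 in the mixture pools read 11.50 and 11.22 at PND35 and 11.65 and 11.10 at PND50. The order ran from genistein at PND50 (11.75 ± 0.08) down to the control at PND35 (11.18 ± 0.18), and every neighbouring pair of groups in it overlapped.

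Acaca makes the malonyl-CoA that commits carbon to fatty acids. It read 10.89 and 11.22 in control pools at PND35 and 11.21 and 11.12 at PND50. Genistein gave 11.28 and 10.81 at PND35 and 11.26 and 11.30 at PND50. Vinclozolin gave 11.78 and 10.04 at PND35 and 11.18 and 11.04 at PND50. Outside the vinclozolin PND35 pools its whole range was 0.67. The mixture gave 11.29 and 10.98 at PND35 and 10.97 and 10.64 at PND50, the last of these the lowest of the other 14 arrays. Group means lay between 11.28 ± 0.03 for genistein at PND50 and 10.80 ± 0.23 for the mixture at PND50. Genistein at PND50 did not overlap the control at PND50, next in order, while all later neighbours overlapped.

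Elovl6 and Scd modify the palmitate that the synthase releases. Control pools gave 11.74 and 11.68 for Elovl6 at PND35 and 12.41 and 12.27 at PND50. Genistein pools gave 12.26 and 11.22 at PND35 and 12.56 and 12.15 at PND50. In the vinclozolin pools Elovl6 read 12.73 and 10.47 at PND35 and 12.18 and 12.13 at PND50. The mixture gave 11.79 and 11.16 at PND35 and 12.18 and 11.88 at PND50. All 4 groups at PND50 had means above all 4 groups at PND35, from 12.35 ± 0.29 for genistein at PND50 to 11.48 ± 0.44 for the mixture at PND35. Only the control and vinclozolin at PND50 were neighbours without overlap.

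Scd was close to the highest value on any array (13.9), and whether so bright a probe set reports differences in full was not tested. Its control pools stood at 13.35 and 13.41 at PND35 and at 13.39 and 13.42 at PND50. Genistein pools stood at 13.45 and 13.22 at PND35 and at 13.43 in each pool at PND50. The vinclozolin pools read 13.50 and 12.95 at PND35 and 13.39 and 13.40 at PND50. Mixture pools read 13.40 and 13.32 at PND35 and 13.40 and 13.26 at PND50. Over all 8 groups the means lay between 13.43 and 13.23, the last with vinclozolin at PND35. Without those pools the whole range over arrays was 0.23.

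Thrsp, the lipogenic cofactor, read 12.61 and 12.68 in control pools at PND35 and 12.87 and 12.81 at PND50. Genistein pools read 12.67 and 12.48 at PND35 and 12.80 and 12.76 at PND50. Vinclozolin pools read 12.98 and 11.68 at PND35 and 12.76 and 12.61 at PND50. Like Elovl6, Thrsp had all PND50 means above all PND35 means, from 12.84 ± 0.05 in the control to 12.33 ± 0.92 with vinclozolin at PND35. Mixture pools read 12.59 and 12.33 at PND35 and 12.72 and 12.61 at PND50. The control and genistein at PND50 were each clear of the next group in order, and all later neighbours overlapped.

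Measured against all genes, the spread of the set was unusual. Between the vinclozolin PND35 pools the median absolute gap over 11796 genes was 0.11 and the 99th percentile 1.11, and 5 of the 6 genes lay past that percentile. Only 28 genes had a larger gap than Elovl6 (2.26), 51 a larger one than Acaca (1.73), 54 than Me1 (1.62), 58 than Acly (1.57) and 86 than Thrsp (1.29). Scd, at 0.55, was exceeded by 472. In the genistein PND35 pools replicate 1 was again higher for all 6 genes, with gaps of 1.04 for Elovl6, 0.90 for Me1, 0.75 for Acly, 0.48 for Acaca, 0.23 for Scd and 0.20 for Thrsp. There, 28 genes exceeded the gap of Elovl6 and 44 that of Me1. Replicate 1 was also higher for 6 of 6 genes in the mixture pools of each age and for 5 of 6 in the control, genistein and vinclozolin pools at PND50, but for 2 of 6 in the PND35 controls. Over all 11796 genes, replicate 1 was higher for 7287 in the genistein PND35 pools, whose array medians were 7.14 and 7.08. It was higher for 6313 genes in the vinclozolin and 6112 in the mixture pools at PND35, and for 5802 in the PND35 controls. At PND50 that number was 6296 in the control, 6188 in the genistein, 6005 in the vinclozolin and 5583 in the mixture pools. By gene, replicate 1 was higher in 8 of 8 groups for Acly and Elovl6, 7 for Me1 and Thrsp, 6 for Acaca and 5 for Scd.

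The residual standard deviation, which is the spread of arrays about their group means, was 0.66 for Elovl6, larger than for 99.6% of genes. It was 0.50 for Me1, 0.47 for Acly and for Acaca, 0.34 for Thrsp and 0.15 for Scd, against a median of 0.096 over all genes. Without the vinclozolin PND35 pools Elovl6 (0.35), Me1 (0.32) and Acly (0.28) still exceeded 98.9%, 98.5% and 97.8% of genes. Acaca came to 0.20, while Thrsp (0.10) and Scd (0.077) lay near or under the median of 0.091. The gaps were not wide in every group: Elovl6 differed by 0.06 between the PND35 control pools and by 0.05 between the vinclozolin PND50 pools.

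**Figure D2:**
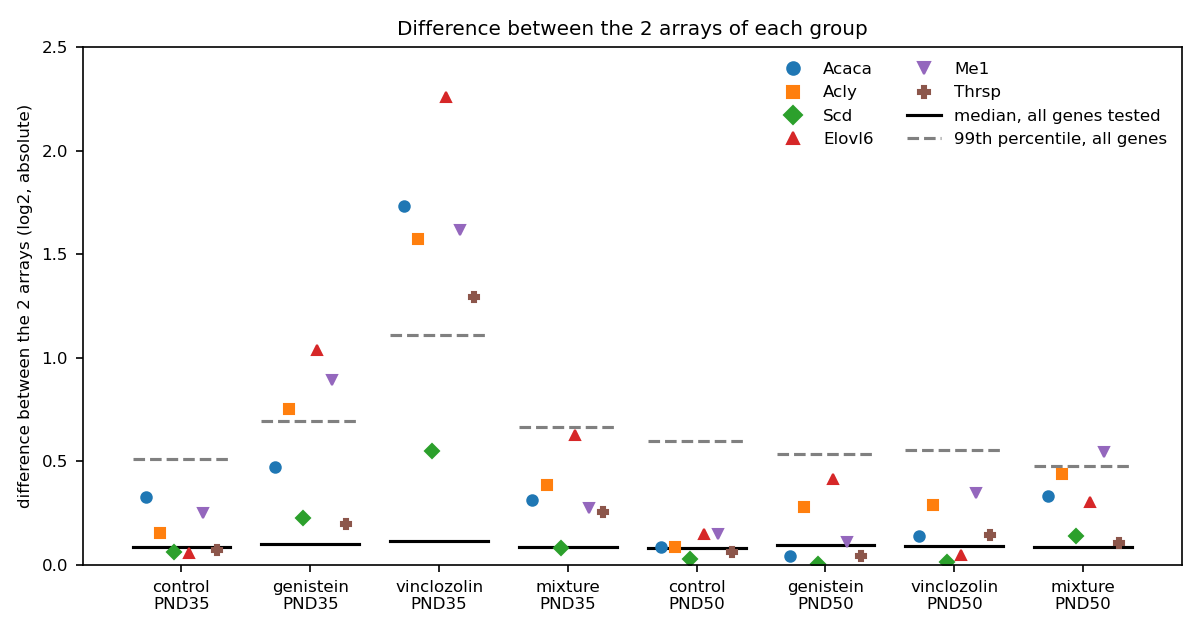
Difference between replicates 1 and 2 (log2) of each of the 6 genes in each of the 8 groups, as absolute values, with the median (solid line) and 99th percentile (dashed line) over all tested genes of that group. The gaps reach 2.26 for Elovl6 with vinclozolin at PND35 and 1.04 with genistein at PND35.

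Markers of other cell types were read beside the gap between the vinclozolin PND35 pools, where 6313 of 11796 genes were higher in replicate 1. Of 16 white adipocyte markers, 13 were higher in replicate 1 of vinclozolin at PND35, with a median difference of 0.33 and a range from -0.38 to 1.30. Adipoq read 12.78 and 12.46 there, and Plin1, which coats lipid droplets, 11.18 and 10.62. The luminal epithelial markers ran the other way, with 1 of 13 higher in replicate 1 and a median of -0.21, and Csn2 read 8.41 and 10.34. Of 8 sebaceous gland markers 4 were higher in replicate 1, with a median of -0.60. Their mean, each marker centred over all arrays, was 0.34 and 1.12 in these pools and between -0.18 and -0.02 on the other 14 arrays. The same mean of 9 hair follicle and keratinocyte markers was 2.46 and 2.24 against -0.59 to -0.21 elsewhere. Skeletal muscle markers were lower in replicate 1 in 8 of 9 cases, with a median of -0.31. The part of these cell types in the gap was not tested. In the genistein PND35 pools all 6 genes, and 7287 of all 11796, were higher in replicate 1. Of the 16 white adipocyte markers 7 were, with a median of -0.02, and the part of the markers was not tested there either. There 9 of 9 skeletal muscle markers were lower in replicate 1, with a median of -0.66, as were 9 of 9 in the mixture PND35 pools (-1.38), and 12 of 13 luminal markers were higher, with a median of 0.27.

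The age comparison set PND50 against PND35, averaged over the 4 treatments, and asked how the genes differ between these peripubertal ages. All 6 point estimates were higher at PND50, with a median log2 difference of 0.22 against -0.01 over all genes, but limma's moderated test called none after Benjamini-Hochberg adjustment. In this comparison 44.6% of all genes were called, 19.4% higher and 25.2% lower, and 53.1% had an unadjusted p under 0.05, which none of the 6 had. Elovl6 had the largest difference, 0.59 (SE 0.27, 95% interval -0.01 to 1.18, 1.5-fold) and an adjusted p of 0.0992 with limma. Me1 came to 0.25 (interval -0.21 to 0.71), Thrsp to 0.24 (-0.07 to 0.55), Acly to 0.20 (-0.23 to 0.63), Scd to 0.06 (-0.09 to 0.21) and Acaca to 0.05 (-0.38 to 0.48). None of the 6 separated the 8 arrays of PND50 from the 8 of PND35, as 1.77% of all genes did in the higher and 3.98% in the lower direction.

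The intervals carry the spread between pools of a group, taken as equal in all 8 groups. The gaps above were not equal: that of Elovl6 ran from 0.05 with vinclozolin at PND50 to 2.26 with vinclozolin at PND35. The median standard error of the 6 genes was 0.20 in this comparison against 0.047 over all genes. With both vinclozolin PND35 arrays left out, here and below, the age difference was averaged over control, genistein and mixture only. It was 0.60 for Elovl6 (SE 0.17, interval 0.24 to 0.96, limma adjusted p = 0.0135) and 0.20 for Thrsp (SE 0.06, adjusted p = 0.0138). Both then passed the threshold, as 43.8% of genes did. Acly (0.27, adjusted p = 0.113), Me1 (0.24, 0.201), Scd (0.03, 0.626) and Acaca (0.00, 0.988) did not pass it on those 14 arrays. When replicate 1 of vinclozolin at PND35 alone was left out, that group was the single pool with the lowest value of each gene. Its spread was taken to be that of the other groups. The age differences then ran from 0.13 for Scd to 0.87 for Elovl6, with Thrsp at 0.40. When replicate 2 alone was left out, they ran from -0.17 for Acaca to 0.30 for Elovl6, with Scd at -0.0044. The size of the age differences, and for Acaca and Scd the sign, thus turned on which of these pools was included.

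Within each treatment the age difference rested on 2 arrays against 2. In untreated animals it was positive for all 6 genes, with a median of 0.33. Elovl6 stood at 0.63 (SE 0.55), Acly at 0.57 (SE 0.40), Me1 at 0.45 (SE 0.42), Thrsp at 0.20, Acaca at 0.10 and Scd at 0.02. None was called, where 0.865% of genes were. Both PND50 pools lay above both PND35 pools for Acly, Elovl6, Me1 and Thrsp, an order that 27.8% of all genes showed, and none of the 6 had the opposite order, which 26.8% had. Fitted without the vinclozolin PND35 arrays, Acly had an interval of 0.07 to 1.07 and Elovl6 one that began just above 0 and reached 1.26, and limma's adjusted p of 0.202 and 0.247 did not pass. After genistein all 6 were positive with a median of 0.22, none was called (2.77% of genes were), and Thrsp alone was without overlap, where 18.9% of genes were higher and 33.6% lower without overlap. After vinclozolin 5 of 6 were positive with a median of 0.23, none was called (2.78% of genes), and none was without overlap, where 24.4% of genes were higher and 24% lower. After the mixture, where 32.7% of genes were called, none of the 6 was, and 4 were positive with a median of 0.03. Elovl6 and Thrsp lay higher at PND50 without overlap (35.5% of genes did), and Acaca lower (37.4%), at -0.33 (SE 0.40). These comparisons share their arrays with the averaged one.

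**Figure D3:**
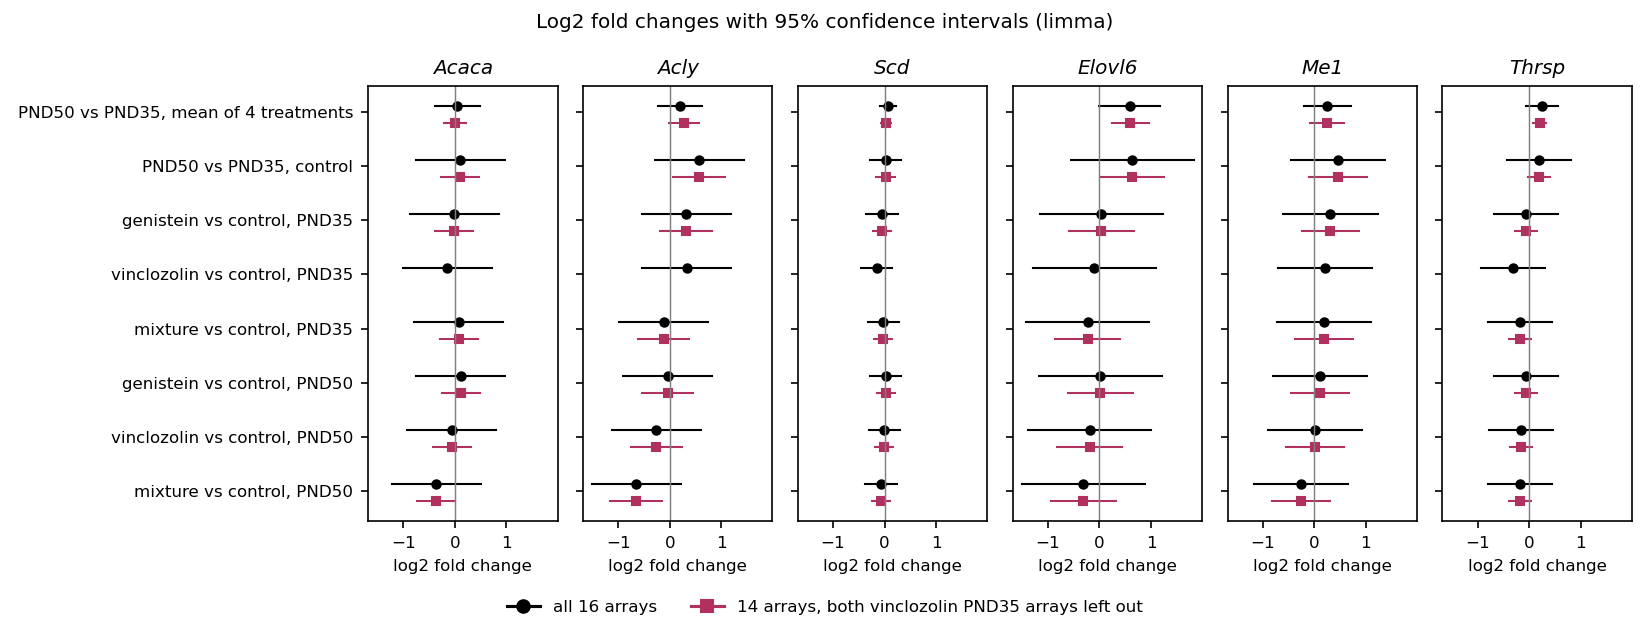
Log2 difference of each of the 6 genes with its 95% interval in the age comparison and in the comparisons of each exposure with the control. Circles are the fit to all 16 arrays, whose intervals include 0 in every case and are narrowest for Scd. Squares are the fit without the vinclozolin PND35 arrays, in which Elovl6 stands at 0.60 for age averaged over control, genistein and mixture.

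Exposure was compared with the untreated control at each age, and the 3 comparisons of an age share the same control arrays. At PND35 no gene of the set was called for any exposure by limma. With genistein at PND35, where 0% of genes were called, differences ran from -0.07 for Thrsp to 0.32 for Acly, with a median of 0.01. With vinclozolin, where 1.34% were called, they ran from -0.31 for Thrsp (interval -0.94 to 0.31) to 0.33 for Acly (-0.54 to 1.19), and Elovl6 at -0.11 had an interval from -1.30 to 1.09. That last interval includes 2-fold differences in either direction. No gene of the set was without overlap, where 18.3% of genes were higher and 24.3% lower. The vinclozolin values depended on the pool, and with either left out the group was 1 array whose spread was taken to be that of the other groups. Without replicate 1 the differences were -1.24 for Elovl6, -1.02 for Acaca, -0.96 for Thrsp, -0.61 for Me1, -0.46 for Acly and -0.43 for Scd. Without replicate 2 they were 1.12 for Acly, 1.02 for Elovl6, 1.01 for Me1, 0.72 for Acaca, 0.33 for Thrsp and 0.12 for Scd. With the mixture, where again 0% of genes were called, differences at PND35 ran from -0.23 for Elovl6 to 0.18 for Me1, and Thrsp was lower without overlap at -0.19, as were 25.9% of genes, with 24.8% higher.

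At PND50 the set lay closest to the control after genistein, from -0.06 for Thrsp to 0.12 for Acaca and for Me1. No gene on the array was called (0%). Acaca and Scd were higher than the control without overlap, as were 14.4% of genes, and Thrsp lower, as were 15.8%. After vinclozolin, again with 0% of genes called, differences ran from -0.26 for Acly to 0.02 for Me1. Acly, Elovl6 and Thrsp were lower than the control without overlap, against 25.4% of all genes. These 3 differences lay between -0.26 and -0.16, and their intervals included 0.

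After the mixture at PND50 all 6 point estimates were below the control, with a median of -0.29 against -0.02 over all genes. Acly stood at -0.65 (SE 0.40, interval -1.52 to 0.21, 1.57-fold lower), Acaca at -0.36 (-1.23 to 0.50), Elovl6 at -0.31 (-1.51 to 0.88), Me1 at -0.26 (-1.18 to 0.65), Thrsp at -0.18 (-0.80 to 0.45) and Scd at -0.07 (-0.37 to 0.23). None was called, and the smallest limma adjusted p was 0.757 for Acly. In this comparison 0.00848% of genes were called. Both mixture pools lay below both control pools for Acaca, Acly, Elovl6 and Thrsp, an order that 24.6% of genes showed, with 16.8% in the opposite order. Without the vinclozolin PND35 arrays the interval of Acly was -1.15 to -0.15, with an adjusted p of 0.455 over all genes in limma.

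Markers of other cell types were read in the same pools, and none of these was called: 13 of 16 white adipocyte markers were below the control (median -0.09), as were 9 of 9 skeletal muscle markers (-0.49), and 11 of 13 luminal markers were above it (0.15). Their part in the differences of the 6 genes was not tested.

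The mixture was also set against each compound alone at the same age. At PND50 all 6 genes were lower in the mixture than after genistein, with a median of -0.35 and Acly lowest at -0.61 (interval -1.48 to 0.25), and none was called, where 0.0254% of genes were. The arrays did not overlap for 5 genes (23.9% of all genes, with 17.4% in the opposite order), the exception being Elovl6. Against vinclozolin at PND50 all 6 were lower again, with a median of -0.20. Acly (-0.39) and Acaca (-0.30) were without overlap (21.4% of all genes, with 23.7% in the opposite order), and none was called (0.0339%). At PND35 differences from genistein ran from -0.44 for Acly to 0.09 for Acaca (0% of genes called), and differences from vinclozolin from -0.45 for Acly to 0.23 for Acaca (2.61% called), with no gene of the set called in either. None was without overlap, where 15.5% of genes were higher and 28.1% lower against genistein, and 28.4% higher and 21.8% lower against vinclozolin. These comparisons reuse the mixture arrays of the preceding one.

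Whether an exposure altered the age difference was tested as an interaction. For the mixture the age difference of Acly was smaller than in the controls by an interaction of -0.53 (SE 0.56), with a limma adjusted p of 0.734, the smallest of the set. With genistein the smallest adjusted p was 0.920 and with vinclozolin 0.907. Interactions were called for 0%, 0.381% and 0% of genes for genistein, vinclozolin and the mixture. A moderated F test for any difference among the 8 groups called 21.4% of genes and none of the 6, whose smallest adjusted p was 0.606.

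The genes moved together from array to array. Pearson's r between pairs of them, a description over arrays that share their pools, lay between 0.73 and 0.93 for the 15 pairs, with a median of 0.87 over 16 arrays. Over the 14 arrays without vinclozolin at PND35 it lay between 0.50 and 0.90, with a median of 0.77. The mean of the 6 genes, each centred over all arrays, was 0.60 and -0.90 in the vinclozolin PND35 pools and 0.27 and -0.33 in the genistein PND35 pools. It was -0.16 and -0.08 in the PND35 controls and -0.01 and -0.33 in the PND35 mixture pools. At PND50 it ranged from -0.25 to 0.31 over the 8 arrays, with an SD of 0.17 against 0.45 at PND35. Arrays of the younger age thus spread more widely, and without vinclozolin the SD of the 6 remaining PND35 arrays was 0.23.

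Genes with the pattern most like that mean were found by Pearson's r over the 16 arrays among 11790 other genes, of which 8 exceeded 0.9. Slc25a1, which carries citrate out of the mitochondrion, came first at r = 0.947 (0.903 on the 14 arrays), followed by Acss2, which makes acetyl-CoA from acetate, at 0.940 (0.836). Pnpla3, which encodes a lipid droplet protein, reached 0.940 (0.882), Gcgr, the glucagon receptor gene, 0.929 (0.814) and Pygl, a glycogen phosphorylase gene, 0.920 (0.747). In the vinclozolin PND35 pools Slc25a1 read 9.59 and 8.67, Acss2 10.57 and 8.78, and Pnpla3 11.52 and 8.47, the largest excess of replicate 1 among all tested genes at 3.05. For single genes the nearest were Pygl for Acaca (0.980) and Scd (0.929), Gpam, which starts glycerolipid synthesis, for Acly (0.951), Parm1 for Elovl6 (0.955) and Thrsp (0.935), and Tkt, the transketolase gene, for Me1 (0.921). The heat map of centred values sets these beside the 6 genes.

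**Figure D4:**
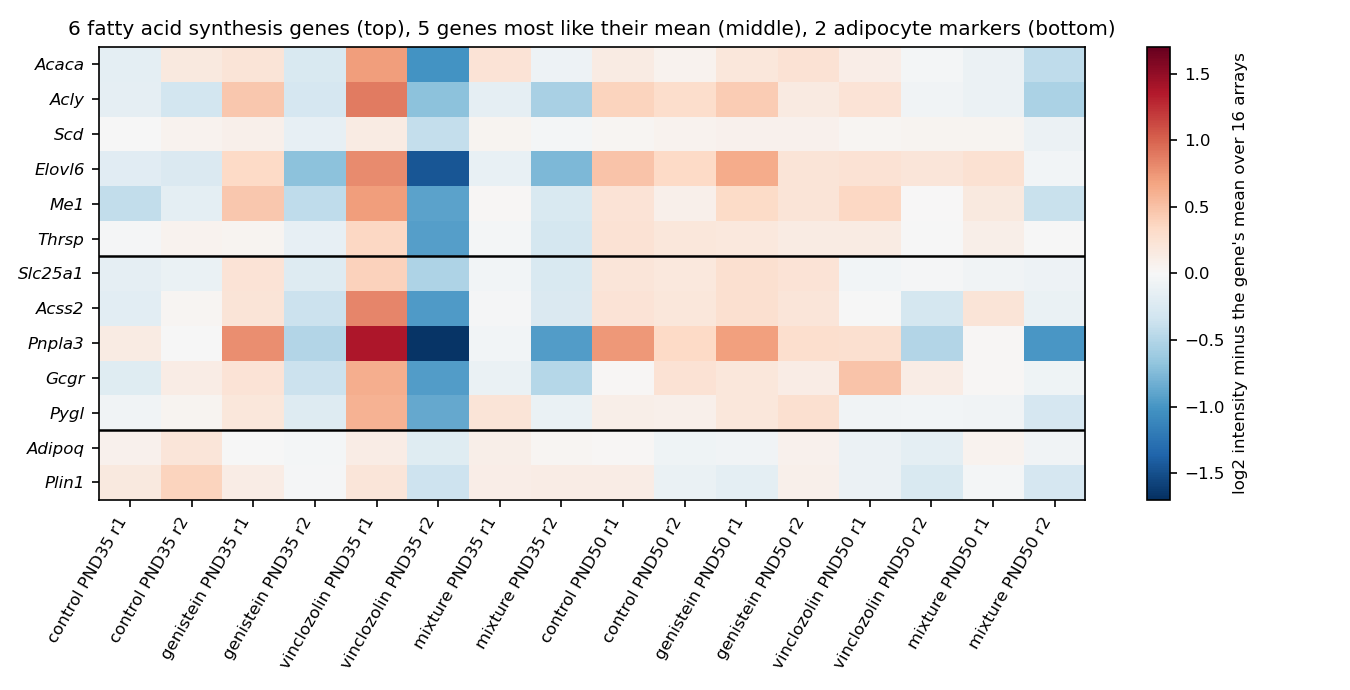
Log2 intensity of the 6 fatty acid synthesis genes, the 5 genes most like their mean and 2 adipocyte markers, each centred on its mean over the 16 arrays, with arrays in columns ordered by age and treatment. The columns of vinclozolin at PND35 hold the highest and the lowest values of the 6 genes, whose mean is 0.60 in replicate 1 and -0.90 in replicate 2.

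Other genes of the pathway, from lists of their roles, differed between the ages in both directions, in an averaged comparison where 19.4% of all genes rose and 25.2% fell. List counts near those shares are no result about the list. Of 7 genes that supply acetyl-CoA and malonyl-CoA, 1 rose and 3 fell from PND35 to PND50, with a median of -0.14. Acacb, the carboxylase whose malonyl-CoA restrains fat burning at the mitochondrion, rose by 0.54 (SE 0.10, limma adjusted p = 0.00187). Citrate synthase, Cs, fell by 0.35 (SE 0.06), Aacs, which activates acetoacetate, fell by 0.39 (SE 0.12), and Mlycd, which breaks malonyl-CoA down, fell by 0.14 (SE 0.04). Slc25a1 and Acss2, the nearest genes in pattern, stood at 0.17 (SE 0.11) and 0.18 (SE 0.20) and did not pass. On the 14 arrays without vinclozolin at PND35 the counts were 2 and 4.

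Of 10 genes of NADPH and glycolytic supply, 2 rose and 2 fell, close to the shares of all genes. Me3, a mitochondrial malic enzyme gene, rose by 0.35 (SE 0.06) and Pklr, a pyruvate kinase gene, by 0.13 (SE 0.04), while Idh1 fell by 0.21 (SE 0.04) and H6pd by 0.18 (SE 0.05), both of which encode NADPH-forming dehydrogenases. Tkt stood at 0.02 (SE 0.12). Of 10 genes of chain ending, elongation and desaturation, 3 rose and 3 fell. Olah, the thioesterase that ends chains early in milk fat synthesis, rose by 0.45 (SE 0.10, limma adjusted p = 0.00400), and the polyunsaturate desaturase genes Fads1 and Fads2 rose by 0.27 (SE 0.06) and 0.33 (SE 0.07). Hsd17b12, which serves every elongation cycle, fell by 0.46 (SE 0.05), Elovl5 fell by 0.18 (SE 0.06) and Elovl3 by 0.41 (SE 0.15). Elovl3 is also a sebaceous gland gene, and with vinclozolin at PND35 it rose by 1.55 over the control (SE 0.30, limma adjusted p = 0.0307), where 0.966% of all genes rose. It was the only one of 8 sebaceous markers called there, and 8 of 9 hair follicle and keratinocyte markers rose. On the 14 arrays 3 genes of this list rose with age and 1 fell.

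Later steps join the fatty acids to glycerol. Of 13 genes of fatty acid activation and triglyceride synthesis, none rose and 8 fell, with a median of -0.26, where 25.2% of all genes fell. Acsl3, an acyl-CoA synthetase gene, fell by 0.38 (SE 0.04, limma adjusted p = 0.000130), Dgat1, which completes triglycerides, by 0.42 (SE 0.05, adjusted p = 0.000242), Gpat3 by 0.54 (SE 0.10) and Lpin2 by 0.31 (SE 0.06). Dgat2 stood at 0.03 (SE 0.15) and Gpam at 0.13 (SE 0.18). Among 19 regulators of lipogenic transcription and of acetyl-CoA carboxylase, 3 rose and 5 fell, again close to the shares of all genes. Nr1h3, the liver X receptor alpha gene, fell by 0.31 (SE 0.05) and Prkaa2, a catalytic subunit of AMP-activated kinase, rose by 0.36 (SE 0.08). Mid1ip1, a relative of Thrsp, stood at -0.13 (SE 0.08), and Insig1 at -0.34 (SE 0.15).

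Cell type markers moved over the same ages, beside 19.4% of all genes that rose and 25.2% that fell. Of 16 white adipocyte markers none rose and 7 fell, with a median of -0.21, among them Cd36 (by 0.41, SE 0.08) and Cebpa (by 0.46, SE 0.09). Luminal epithelial markers rose in 10 of 13 cases and milk protein and milk fat secretion markers in 6 of 10, Btn1a1 by 0.79 (SE 0.06), although after genistein alone 10 of 13 luminal markers had a negative difference and none was called. All 9 skeletal muscle markers fell, with a median of -1.34, while 1 of 5 brown adipocyte markers, 1 of 8 sebaceous gland markers and 6 of 9 hair follicle markers fell. By treatment some lists had opposite signs. The interaction of vinclozolin with age was called for 7 of 9 hair follicle markers, all lower, and for none of 9 skeletal muscle markers. It was called for 0.381% of all genes, and the lists were not tested as sets. Hair follicle markers were lower at PND50 after vinclozolin (8 of 9 called, median -1.68), while in the controls 7 of 9 were positive (median 0.13) and after the mixture 2 rose. Skeletal muscle markers were positive for 9 of 9 after vinclozolin (median 0.59, none called) and negative for 9 of 9 in each other treatment. The part of these markers in the age differences of the pathway was not tested. The mean of the white adipocyte markers correlated with the mean of the 6 genes at r = 0.09 over the 16 arrays and -0.29 over 14. The other marker lists lay between -0.48 (sebaceous gland) and 0.22 (brown adipocyte) over 16. Over 14 they lay between -0.36 (skeletal muscle) and 0.44 (luminal epithelium). Among the pathway lists r was 0.82 and 0.72 for acetyl-CoA supply, which holds Slc25a1 and Acss2, and 0.81 and 0.45 for NADPH supply. It was 0.40 and 0.74 for chain ending, 0.16 and -0.19 for triglyceride synthesis and 0.04 and 0.40 for regulators. What lies behind these values was not tested.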

How the data were processed

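Total RNA of individual mammary glands was pooled by 5 animals and hybridised to 16 1-colour arrays, per the labels' protocols. The values deposited by the authors, 1 for each of 27342 probe sets and array, were read as log2 intensities from their range (2.20 to 13.9). Their log base, background correction and normalization were not given in the sources used here, and no further scaling was applied.

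The platform's annotation listed 15420 probe sets, 15097 with 1 gene symbol and 323 with several, and 11922 are unnamed here. Of the former, 15067 matched the RefSeq gene table of GRCr8, used for names, and 30 kept the annotation's symbol. Of 14324 genes, 499 had several probe sets, and the one with the highest mean was kept. Genes with a mean under the 25th percentile of probe sets were left out, which left 11796.

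Tests used limma 3.58.1 in R 4.3.3 (lmFit and eBayes, 1 mean per group, 8 residual degrees of freedom, two-sided), with Benjamini-Hochberg adjustment over all tested genes of a comparison. A gene was called at an adjusted p under 0.05. There were 19 comparisons, including the F test. Groups and replicate numbers came from the sample titles. The fits were tested on simulated data.

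The genes, the lists, the tests and the alternatives were chosen with earlier results of these data known, as was the idea of leaving out the vinclozolin PND35 arrays. Motifs and the 250-base window were chosen after the files were seen, as were the 4 comparisons (age, age in controls, vinclozolin at PND35 and mixture at PND50) in which each gene was followed through every alternative. Alternatives were other filters, scalings, probe set rules, fits and sets of arrays, and each array left out. Genes named were the set, the nearest genes in pattern, and genes of the lists. Figures used matplotlib 3.10.9 in Python 3.11.15.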

Additional observations from a re-analysis of the deposited data

How the results depend on the processing

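None of the 6 genes passed the threshold in any of the 19 comparisons as reported. This count differed under the alternatives that follow. For age averaged over treatments it was 1 with a replicate block (Elovl6, limma adjusted p = 0.0455), where 44.6% of all genes passed. It was 2 without both vinclozolin PND35 arrays, with age averaged over control, genistein and mixture, where 43.8% of all genes passed. For age in controls it was 2 on that comparison's own 4 arrays (Acly and Elovl6), where 1.49% of all genes passed. The block changed no other count, and replicate differences correlated between -0.37 and 0.30 over 28 pairs of groups (median 0.04, all genes), so the numbers were not taken to pair the arrays, although Acly and Elovl6 were higher in replicate 1 in 8 of 8 groups. With single arrays left out the count ran from 0 to 4 for age after vinclozolin, 0 to 3 for vinclozolin at PND35, for the mixture against vinclozolin at PND35 and for any group, and 0 to 1 for the vinclozolin interaction; without replicate 1 of vinclozolin at PND35 Acaca, Elovl6 and Thrsp differed among groups, and without its replicate 2 Acly did. The cause was not tested.

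In the 4 comparisons followed by gene, 584 of 612 values kept direction and side of the threshold, 14 passed it, and 14 reversed, 13 of them with an array left out. The other was Scd for age in controls, -0.0094 with median centring. A change of filter, fit or probe set rule left a difference between 2 groups as it was. So did leaving out an array of another group. Many of the 612 values thus could not change direction, and for those the tally gives no information on it. Ranges with single arrays left out that include a reversal were, for age, Acaca -0.17 to 0.27 and Scd -0.0044 to 0.13; for age in controls, Acaca -0.060 to 0.27 and Scd -0.012 to 0.051; for vinclozolin at PND35, Acaca -1.02 to 0.72, Acly -0.46 to 1.12, Scd -0.43 to 0.12, Elovl6 -1.24 to 1.02, Me1 -0.61 to 1.01 and Thrsp -0.96 to 0.33; and for the mixture at PND50, Me1 -0.53 to 0.011. Over all genes, calls numbered 5261 for age (4224 to 5486 under alternatives), 102 for age in controls (2 to 375), 158 for vinclozolin at PND35 (25 to 844) and 3852 for age in the mixture (1596 to 4568). Where an array was left out, its group was 1 array, assumed to vary like the others.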
